A study of Mus musculus with 6 samples.

Results

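Potassium channel genes were described here across whole brains of mice exposed to polystyrene nanoplastics and of unexposed mice. The members are the rows of the deposited FPKM tables whose symbol starts with Kcn and does not end in os or Rik, 97 of the 27378 genes listed, and the rule uses the name alone. Of these, 94 encode channel pore subunits, auxiliary subunits or regulators. The other 3 are RNA genes that the naming rule takes in (Kcnmb4os1, Kcnmb4os2 and Kcnq1ot1), and they are described apart. FPKM is the number of fragments scaled to gene length and to the reads of the library.

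All mice were male C57BL/6J, a standard inbred laboratory strain, with wild-type genotype. Those of the PS group received polystyrene nanoplastics, an environmental particle pollutant, through the nose over 28 days, and those of the control group received sterile distilled water by the same route over the same time. Each group held 3 libraries of total RNA from brain with all its cell types. Age, dose and particle size are not given in the sources used here. Whether every library stands for its own mouse is not given in the labels. The p-values therefore reflect the spread among these libraries, and part of that spread may be technical.

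Potassium channels let potassium ions cross the membrane and so hold the resting potential, end action potentials and set how readily a neuron fires again. Voltage-gated (Kv) channels open on depolarisation, calcium- and sodium-activated channels open when these ions enter, inward rectifiers (Kir) and tandem-pore-domain (K2P) channels conduct near rest, and auxiliary subunits change gating and surface delivery. In brain, glial channels also clear the potassium that firing neurons release.

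A sequence feature sets the pore subunits apart from the auxiliary subunits and was not used by the naming rule. The ion selectivity filter is a short loop whose coding sequence can be searched for in frame as 4 codons in a row, written with N for any base. They are NTN, then GGN for glycine, then TAN for tyrosine or TTN for phenylalanine or leucine, then GGN again. On the sense strand only of the longest GENCODE M21 coding sequence of each gene (GRCm38), either form occurred in 75 of the 77 genes of the pore families and in 0 of the 17 auxiliary subunits and regulators. Among all 21562 protein-coding genes searched over their whole coding length, 1153 (5.347%) held one. The genes of the pore families without a match were Kcnk1 and Kcnk7, and 11 of the 14 K2P genes held at least 2 matches. Kcnk6 held only 1 match, the one labelled first match below. A match is a description of these letters and no measure of function. The sequences below, 5′ to 3′, show the filter region in members of several pore families, with the 12 matched bases in capitals and 18 bases on either side, all within the coding region.
Kcna1, Kv1, coding bases 1117 to 1128: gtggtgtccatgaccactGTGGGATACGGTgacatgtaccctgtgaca
Kcna6, Kv1, coding bases 1267 to 1278: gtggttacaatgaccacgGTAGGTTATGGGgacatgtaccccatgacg
Kcnd2, Kv4, coding bases 1111 to 1122: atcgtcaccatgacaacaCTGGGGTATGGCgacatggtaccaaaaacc
Kcnf1, silent Kv, coding bases 1147 to 1158: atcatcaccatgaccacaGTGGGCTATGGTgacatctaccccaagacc
Kcnh3, ELK, coding bases 1429 to 1440: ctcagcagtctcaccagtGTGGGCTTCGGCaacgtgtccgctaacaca
Kcnma1, BK, coding bases 1057 to 1068: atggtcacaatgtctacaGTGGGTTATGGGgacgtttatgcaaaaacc
Kcnn3, SK, coding bases 1525 to 1536: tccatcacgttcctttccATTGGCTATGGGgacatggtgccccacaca
Kcnk6, K2P, first match, coding bases 319 to 330: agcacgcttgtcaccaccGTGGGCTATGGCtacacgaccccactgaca
Kcnk2, K2P, first match, coding bases 472 to 483: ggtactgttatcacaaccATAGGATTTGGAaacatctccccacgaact
Kcnk2, K2P, second match, coding bases 799 to 810: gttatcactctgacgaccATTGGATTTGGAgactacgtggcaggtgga
Kcnh3 and both loops of Kcnk2 carry the phenylalanine form of the motif, and the other sequences shown carry the tyrosine form. Kcnk6 and Kcna6 are shown because they had the lowest unadjusted p in each direction in the comparison of groups, Kcnf1 because control replicate 2 stood farthest from the other libraries in it among the pore families, and Kcnd2 because its level depends on the gene model.

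The values rest on 39239183 to 40335590 reads per library, which were recovered from the whole-number steps of the FPKM values. Libraries correlated at 0.9888 to 0.9966 on the log2 scale over the tested genes. Control replicate 2 stood apart along the leading principal component (42.3% of the variance), so values without it are given for the members that moved most with it. All 14 sets of brain cell type, region and blood markers checked had every marker above 0. The summed markers of 3 of these 14 sets did not overlap between the groups. Taken singly, 11.3% of all tested genes did not overlap. Red-cell markers were at 61.7 to 91.3 FPKM in control and 28.2 to 44.1 in PS, endothelial markers at 56.2 to 65.7 and 48.5 to 54.3, and oligodendrocyte precursor markers at 76.6 to 91.3 and 96.7 to 100.9. At an adjusted p under 0.05 by limma, 1 endothelial marker was called, and no red-cell or oligodendrocyte precursor marker was. The part of these markers in the member results was not tested. In whole tissue, fewer cells of a type and less RNA per cell cannot be told apart.

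Potassium channel transcripts covered a wide range in these brains. Of the 97 members, 67 had a mean of at least 1 FPKM over the 6 libraries and were tested, among them 66 of the 94 channel genes, and 13 had a mean of at least 20. Kcnab2, Kcnj10 and Kcna1 were among the highest. Kcnab2, a cytoplasmic beta subunit of Kv1 channels, stood at 49.4, 46.7 and 47.7 FPKM in control replicates 1 to 3 and 46.2, 48.4 and 47.4 in PS replicates 1 to 3. Kcnj10, the main inward rectifier of astrocytes, which takes up extracellular potassium, was at 49.9, 36.5 and 45.8 FPKM in control replicates 1 to 3 and 43.4, 38.7 and 43.6 in PS replicates 1 to 3. All 6 Kcnab2 values lay close together, whereas those of Kcnj10 were high in control replicate 1 and low in control replicate 2.

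Among Kv1 genes, whose channels sit along axons and open at low voltage, Kcna1 was highest. It was at 40.6, 37.3 and 39.2 FPKM in control replicates 1 to 3 and 45.2, 38.8 and 38.8 in PS replicates 1 to 3. Kcna2, its partner in many axonal channels, was at 28.6, 26.6 and 22.9 FPKM in control replicates 1 to 3 and 31.9, 27.5 and 27.1 in PS replicates 1 to 3. PS replicate 1 held the highest value of both, and the groups overlapped. Kcna6, Kcna3 and Kcna5 followed in that order at means from 14.5 to 3.96 FPKM, and the means of Kcna3 and Kcna5 differed by less than the spread between libraries.

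Kv3 channels repolarise fast-spiking neurons quickly. Kcnc1 was at 25.3, 26.4 and 26.3 FPKM in control replicates 1 to 3 and 31.8, 27.2 and 25.5 in PS replicates 1 to 3, and PS replicate 1 stood above the other 5 libraries. Kcnc4 and Kcnc2 were lower, at means of 8.62 and 6.77 FPKM.

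Kv2, Kv4 and Kv7 pores set delayed, A-type and M-type currents. Kcnq3, an M-current subunit, was at 16.9, 19.5 and 14.7 FPKM in control replicates 1 to 3 and 17.8, 17.3 and 16.4 in PS replicates 1 to 3. Its PS values lay inside the control range. Kcnq5, of the same family, had a mean of 4.87 FPKM, and the delayed rectifier gene Kcnb2 of 1.903. Of the A-type genes, Kcnd3 had a mean of 10.4 FPKM, and Kcnd2 and Kcnd1 of 1.53 and 1.39.

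Silent Kv subunits (Kcnf1, Kcng, Kcns and Kcnv genes) form no current alone and modify Kv2 channels. Kcnf1 was the highest, at 24.9, 34.6 and 22.4 FPKM in control replicates 1 to 3 and 21.4, 26.4 and 21.2 in PS replicates 1 to 3. Its highest value was that of control replicate 2. Kcng4, Kcng1, Kcns2, Kcnv1 and Kcns1 followed at means between 8.23 and 4.41 FPKM, and Kcng2 and Kcns3 were at 2.404 and 1.497. Of the ether-a-go-go family, Kcnh3 had a mean of 19.2 FPKM and Kcnh2 of 13.2, ahead of Kcnh1 at 7.09. Kcnh7, Kcnh4 and Kcnh5 lay between 2.56 and 1.36.

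The large-conductance calcium-activated channel gene Kcnma1 was at 15.9, 17.9 and 13.5 FPKM in control replicates 1 to 3 and 17.8, 15.4 and 15.6 in PS replicates 1 to 3. Its auxiliary gene Kcnmb4, the neuronal beta subunit, had a mean of 7.32 FPKM, and Kcnmb1, Kcnmb2 and Kcnmb3 were all under 1. Kcnt1, a sodium-activated channel, had a mean of 10.4 FPKM. Small-conductance genes followed in the order Kcnn2 (7.52), Kcnn3 (2.56) and Kcnn1 (2.07), and Kcnn4, the intermediate-conductance channel of blood and immune cells, was at 0.109. The groups overlapped for each of these genes. Kcnt2, a second sodium-activated channel gene, and Kcnu1, a Slo channel known from sperm, were lower, at 2.20 and 0.476.

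Inward rectifiers gated by G proteins were led by Kcnj9, at a mean of 27.6 FPKM, with Kcnj3 at 13.01 and Kcnj6 at 4.34. The pore of ATP-sensitive channels in neurons, Kcnj11, was at 11.1, 10.4 and 11.3 FPKM in control replicates 1 to 3 and 11.9, 11.5 and 11.4 in PS replicates 1 to 3. Its vascular relative Kcnj8, known from pericytes, had a mean of 0.958, just under the filter. Kcnj16, which joins Kcnj10 in glial channels, had a mean of 7.31, and Kcnj13, known from choroid plexus epithelium, of 2.41. The strong rectifiers Kcnj4, Kcnj12 and Kcnj2 had means of 14.5, 3.39 and 3.17.

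K2P leak channels were led by Kcnk1, at 27.9, 26.7 and 26.7 FPKM in control replicates 1 to 3 and 25.7, 23.1 and 25.2 in PS replicates 1 to 3. Kcnk2, Kcnk3 and Kcnk9 had means of 10.8, 9.16 and 6.62 FPKM, and Kcnk12 and Kcnk4 of 4.53 and 1.95. Kcnk13, known as a microglial channel, was at 1.23, and Kcnk10 and Kcnk6 were at 1.07 and 1.05, just above the filter.

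KChIP proteins (Kcnip genes) bind Kv4 channels and aid their delivery to the membrane. Kcnip2 was at 20.3, 28.1 and 24.3 FPKM in control replicates 1 to 3 and 23.7, 28.7 and 26.9 in PS replicates 1 to 3, with its lowest value in control replicate 1 and its highest in PS replicate 2. Kcnip3 and Kcnip1 had means of 17.96 and 10.3 FPKM. Among KCNE subunits only Kcne1l and Kcne2 passed the filter, at 4.52 and 3.47.

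**Figure D1:**
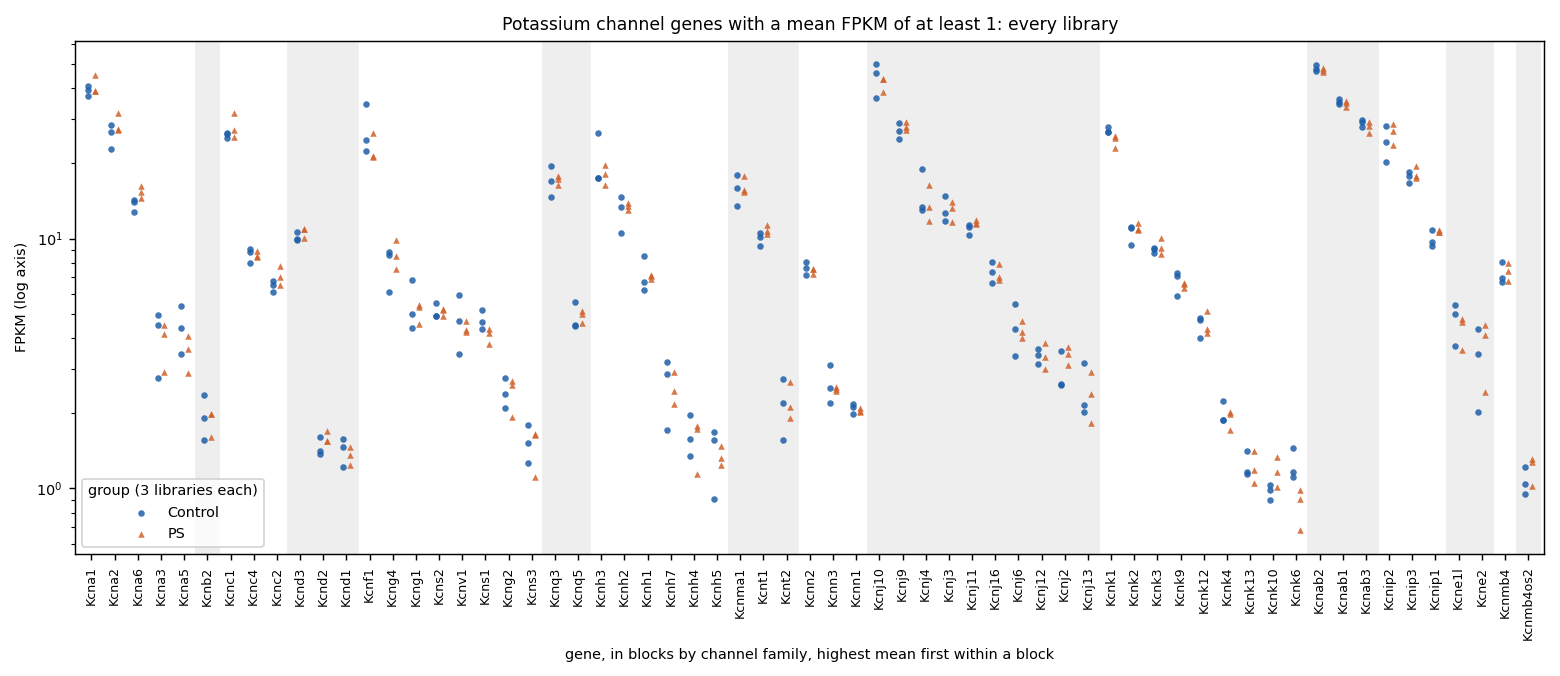
FPKM (log axis) of 63 of the 67 tested members in each of 6 libraries, with circles for control and triangles for PS, in shaded or plain blocks by channel family. Levels span from Kcnab2 near 47.6 to genes near 1 FPKM, and for most genes the circles and triangles overlap.

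The length used to scale a gene changes where it stands in this order. The steps of the FPKM values gave the model length by which each gene was divided. For 93 members it could be set beside the longest protein-coding transcript in GENCODE M21, and in 25 it was over 2 times that length (median ratio 1.282). Kcnd2 had a model of 98276 bases against a transcript of 5152, and Kcnip4, a KChIP subunit, one of 164773 against 2394. Behind the low FPKM of Kcnd2 stood 5357, 6209 and 5505 reads in control replicates 1 to 3 and 6646, 6129 and 6092 in PS replicates 1 to 3. For Kcnip4, with a mean of 0.509 FPKM, there were 3426, 3093 and 3454 reads in control replicates 1 to 3 and 3444, 3354 and 3284 in PS replicates 1 to 3. If all these reads came from the GENCODE transcript, the mean would be 29.2 FPKM for Kcnd2 and 35.1 for Kcnip4. Scaled in the same way, Kcnab2 would be at 118.6 FPKM, Kcna1 at 89.0 and Kcnj10 at 56.0, above both. Where the reads lie along the models was not tested.

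The filter of 1 FPKM thus left out genes that were well covered. Of the 30 members not tested, 6 had at least 100 reads per library on average. They included Kcna4, an A-type Kv1 gene with a model of 33502 bases and 1249, 1534 and 1162 reads in control replicates 1 to 3 and 1221, 1381 and 1121 in PS replicates 1 to 3, and Kcng3, with 392, 386 and 297 reads in control replicates 1 to 3 and 285, 310 and 240 in PS replicates 1 to 3. A further fit on reads covered 85 members and is given with the comparison.

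**Figure D2:**
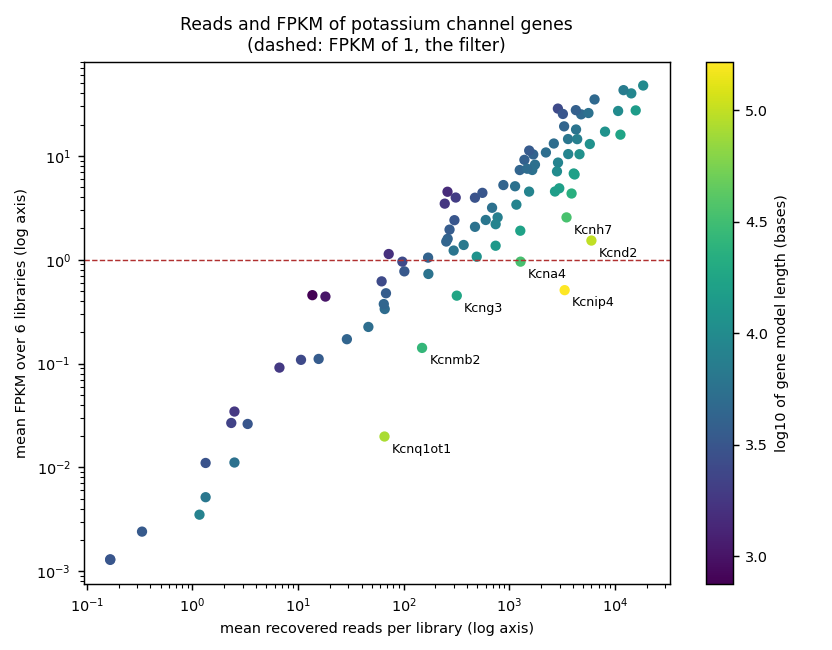
Mean recovered reads per library (x, log axis) against mean FPKM (y, log axis) for members with reads, coloured by the length of the gene model, with the dashed line at the filter of 1 FPKM. Kcnd2, Kcnip4, Kcna4, Kcng3 and Kcnmb2, whose models are long, lie to the right of members with similar FPKM.

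The comparison of PS with control asks whether exposure to nanoplastics changed channel gene expression in the brain. No member passed the test in either direction: 0 of 67 were called at an adjusted p under 0.05 by limma, against 20 of 12229 genes overall (0.164%), all of them lower in PS and none a member. At an unadjusted p under 0.05, 1 member was higher and 1 was lower, or 2.99% of the tested members against 5.94% of all tested genes (2.66% higher and 3.29% lower). The median log2 fold change of members was -0.006 (all tested genes, 0.003), with 31 above 0 and 36 below, and values ran from -0.27 to 0.18. Each fold change compares PS with control as log2(FPKM + 1), a scale that shrinks the changes of genes with low values.

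The intervals show the range of change that the spread among these libraries allows in this fit. They depend on the fit, and for Kcnip2 the interval was -0.129 to 0.386 here and 0.157 to 0.521 with sample weights. In 66 of the 67 members the 95% interval of the fold change lay within 1.5-fold either way on this scale, and in 45 it lay within 1.25-fold. The exception at 1.5-fold was Kcne2, an auxiliary subunit known from choroid plexus (log2 fold change 0.15, 95% interval -0.36 to 0.66, limma adjusted p = 0.980). For genes of low FPKM this scale also narrows the interval. On reads, the intervals of 3 more of these members passed 1.5-fold beside that of Kcne2 (-0.435 to 0.819). They were Kcnk6 (-0.948 to -0.136), Kcna5 (-0.685 to 0.062) and Kcnmb4os2 (-0.309 to 0.647).

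Of the 67, 4 showed no overlap between the groups (5.97%, against 11.3% of all tested genes). Kcna6 and Kcnj11 had all PS values above all control values (2.99%, against 4.93%), and Kcnk1 and Kcnk6 had all PS values below (2.99%, against 6.33%). These shares were below the background.

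Kcnk6 encodes a K2P channel of low abundance. It was at 1.11, 1.45 and 1.17 FPKM in control replicates 1 to 3 and 0.678, 0.903 and 0.984 in PS replicates 1 to 3 (log2 fold change -0.27, 95% interval -0.49 to -0.05, limma adjusted p = 0.716, unadjusted p = 0.02). Behind these values were 180, 232 and 189 reads in control replicates 1 to 3 and 111, 149 and 161 in PS replicates 1 to 3. The PS values were all below the control values, but the gap between the lowest control and the highest PS value was small. The size depended on the scale, with a log2 fold change of -0.495 at a pseudocount of 0.1 and -0.542 on reads (limma-voom adjusted p = 0.6997).

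Kcna6, a Kv1 pore subunit, was at 14.2, 12.8 and 14.03 FPKM in control replicates 1 to 3 and 16.2, 15.4 and 14.6 in PS replicates 1 to 3 (log2 fold change 0.16, 95% interval 0.01 to 0.31, limma adjusted p = 0.824, unadjusted p = 0.0427). Its PS values began just above the highest control value. Kcnk1, the most abundant K2P gene, was the next by p (log2 fold change -0.13, 95% interval -0.27 to 0.01, limma adjusted p = 0.844), with PS replicate 2 the lowest. Kcnj11 differed by little (log2 fold change 0.08, 95% interval -0.05 to 0.22, limma adjusted p = 0.946).

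By role, voltage-gated pores gave small values of both signs. Of the Kv3 genes, Kcnc2 was at 0.11 (-0.06 to 0.29), Kcnc1 at 0.10 (-0.08 to 0.29) and Kcnc4 at 0.004, which turned to -0.018 with sample weights and -0.044 without control replicate 2. Without PS replicate 1, in which summed cerebellar markers were highest, at 322 FPKM against 231 to 269 in the other 5 libraries, Kcnc1 stood at 0.02. The part of cerebellar tissue in this difference was not tested. Among Kv1 genes, Kcna2 was at 0.15 (-0.07 to 0.36), Kcna1 at 0.06 (-0.10 to 0.23) and Kcna5 at -0.25 (-0.56 to 0.06). The value of Kcna2 was 0.016 with sample weights, 0.059 without control replicate 3 and 0.073 without PS replicate 1. That of Kcna5 was -0.007 with sample weights, and leaving out 1 library moved it to -0.125 (control replicate 2), -0.145 (PS replicate 1) or -0.379 (control replicate 1).

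Kcnq3 averaged 17.1 ± 2.42 FPKM in control and 17.2 ± 0.738 in PS (SD, n = 3 in each group), and its log2 fold change was 0.02 with an interval from -0.20 to 0.23. For Kcnq5 it was 0.02 (-0.18 to 0.21). A change of 1.25-fold in either direction lies outside the intervals of both genes, on the log2(FPKM + 1) scale.

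Among Kv2 and Kv4 genes, Kcnb2 had a log2 fold change of -0.04 (-0.29 to 0.21), Kcnd3 of 0.06 (-0.09 to 0.20), Kcnd2 of 0.07 and Kcnd1 of -0.04. On reads, free of the pseudocount, Kcnd2 was at 0.12 (interval -0.04 to 0.29). Of the 8 tested silent subunits, 6 had negative values (4 without control replicate 2), with Kcnf1 at -0.22 (-0.56 to 0.11), Kcns1 at -0.16 (-0.34 to 0.02) and Kcng4 at 0.13 (-0.17 to 0.43).

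Calcium- and sodium-activated channels were likewise uncalled, with Kcnma1 at 0.04 (-0.18 to 0.27), Kcnt1 at 0.10 (-0.04 to 0.26) and the 3 tested SK genes between -0.04 and -0.02. In the ether-a-go-go family, 5 of 6 values were negative (1 of 6 without control replicate 2, and 4 of 6 on reads or with a pseudocount of 0.1), led by Kcnh3 at -0.15 (-0.48 to 0.18), and Kcnh2 was at 0.07.

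Glial and rectifier channels gave no call either. Kcnj10 averaged 44.1 ± 6.87 FPKM in control and 41.9 ± 2.75 in PS (SD, n = 3 in each group), with a log2 fold change of -0.06 (-0.31 to 0.18), and Kcnj16 at -0.01 (-0.20 to 0.18). Kcnj2, which stabilises the resting potential, was at 2.61, 3.55 and 2.60 FPKM in control replicates 1 to 3 and 3.11, 3.45 and 3.67 in PS replicates 1 to 3, and it had the highest fold change of all members (log2 fold change 0.18, 95% interval -0.06 to 0.41, limma adjusted p = 0.908). Control replicates 1 and 3 lay below all PS values, and control replicate 2 lay among them. The value of Kcnj2 was 0.290 without control replicate 2, and 0.122 to 0.228 with any other library left out. Kcnj9 was at 0.06 (-0.09 to 0.21) and Kcnj4 at -0.11 (-0.45 to 0.23).

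Of the auxiliary subunits, the 3 tested KChIP genes had positive values, Kcnip2 at 0.13 (-0.13 to 0.39), Kcnip1 at 0.10 (-0.05 to 0.25) and Kcnip3 at 0.05 (-0.10 to 0.20). The 3 Kv beta genes had negative ones, between -0.06 and -0.02 (Kcnab1 turned to 0.006 with sample weights), with summed levels of 112 ± 1.34 FPKM in control and 110 ± 2.67 in PS (SD, n = 3 in each group). Kcnmb4 was at 0.03.

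**Figure D3:**
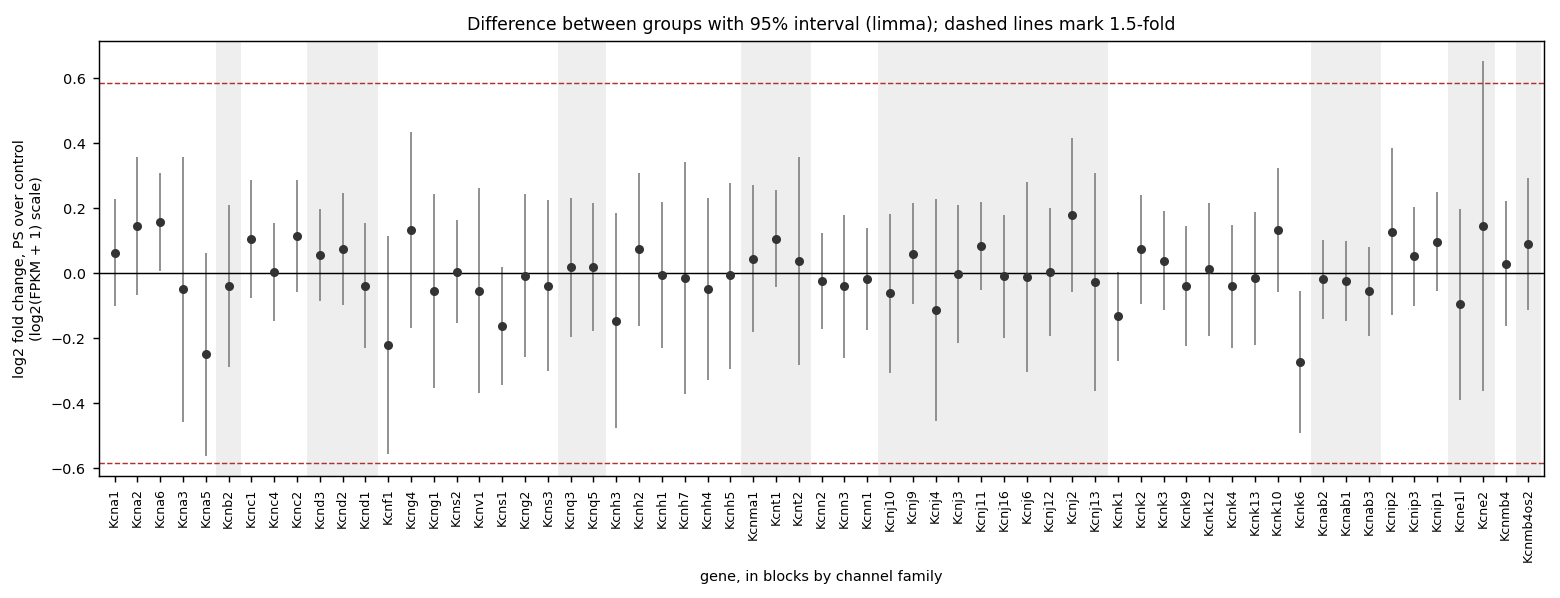
Log2 fold change of PS over control with 95% interval (limma, log2(FPKM + 1) scale) for 63 of the 67 tested members in blocks by channel family, with dashed lines at 1.5-fold. All intervals but those of Kcna6 and Kcnk6 include 0, and only that of Kcne2 crosses a dashed line.

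With the reads in place of FPKM, 85 members were tested among 16551 genes, and again none was called (31 genes were called overall). The 18 members reached only in this way included Kcnip4, with a log2 fold change of -0.005 (interval -0.153 to 0.143), Kcna4 at -0.100 (-0.351 to 0.150) and Kcnj8 at -0.14 (-0.67 to 0.39). Kcng3 was the lowest by p among them, at -0.38 (-0.71 to -0.05, limma-voom adjusted p = 0.771). This fit was added after seeing the data.

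With sample weights, which give less weight to libraries that stand apart, 2 members were called higher, Kcnip2 (log2 fold change 0.34, adjusted p = 0.0449) and Kcnj2 (0.28, adjusted p = 0.0446). Unweighted, Kcnip2 was at 0.011 without control replicate 1, its lowest library, and at 0.069 to 0.237 with any other library left out. Its weighted value lay above all of these. That of Kcnj10 (-0.224) likewise lay outside its range with 1 library left out (-0.189 to 0.031). In both genes control replicate 1 was the control value farthest from the PS mean. The weights of single libraries are not given here, and how far control replicate 1 carried the weighted results was not tested. In the weighted fit 297 genes were called higher, so the share of members called higher was near the background (2.99% against 2.43%). In either direction 632 genes were called there (5.17%). Blocking by replicate number gave 48 calls over all genes, 0.393% of those tested, and none among members (lowest adjusted p 0.414, Kcnk6). At an unadjusted p under 0.05 the block gave 4 members lower (Kcna5, Kcnf1, Kcnk6 and Kcns1) and Kcna6 higher, 7.46% of members against 7.76% of all tested genes.

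Control replicate 2 held the highest or the lowest value in 41 of the 67 members (61.2%, against 53.7% of all tested genes). It was highest in 27 (40.3%, against 23.7% of all tested genes) and lowest in 14 (20.9%, against 30%). Kcnf1, Kcnh3 and Kcnj4 stood highest in it, and Kcne2, Kcng4, Kcnh2 and Kcnj10 lowest.

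Kcnh3, an ELK channel gene of forebrain neurons, was at 17.4, 26.4 and 17.5 FPKM in control replicates 1 to 3 and 16.4, 19.7 and 18.1 in PS replicates 1 to 3. Kcnj4, an inward rectifier of forebrain neurons, was at 13.03, 19.03 and 13.4 FPKM in control replicates 1 to 3 and 11.8, 16.4 and 13.3 in PS replicates 1 to 3. Kcng4, a silent subunit, was at 8.55, 6.10 and 8.84 FPKM in control replicates 1 to 3 and 9.86, 7.54 and 8.48 in PS replicates 1 to 3, and here control replicate 2 was the lowest. For Kcnh2, an ERG channel gene, the values were 13.3, 10.5 and 14.7 FPKM in control replicates 1 to 3 and 13.9, 13.02 and 13.5 in PS replicates 1 to 3, again with control replicate 2 the lowest.

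Leaving out control replicate 2 changed the sign of the log2 fold change in 23 of the 67 members, and no member was called. Kcnf1 went from -0.22 to -0.04, Kcnh3 from -0.15 to 0.04, Kcng4 from 0.13 to -0.02 and Kcnj10 from -0.06 to -0.19. The median of members went from -0.006 to 0.053.

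Markers of cell types and regions differed between these libraries too. In control replicate 2, summed mature oligodendrocyte markers stood at 1060 FPKM (1413 to 1650 in the other 5 libraries). The sum of Pvalb, Syt2 and Tac1, a set that is not particular to 1 cell type, stood at 162 (190 to 212). Thalamic and midbrain markers stood at 38.7 (49.6 to 59.9) and choroid plexus markers at 621 (767 to 1269). Cerebellar (231) and oligodendrocyte precursor markers (76.6) were also lowest there. Astrocyte markers stood at 378 FPKM (362 to 400), and striatal markers at 190, the highest (135 to 184). Endothelial (65.7), pericyte and smooth muscle (30.3) and red-cell markers (91.3) were also highest in control replicate 2. Neuron markers (2040) and cortical and hippocampal markers (91.9) were below those of PS replicate 2 (2043 and 93.7). The part of these markers in the channel values was not tested.

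**Figure D4:**
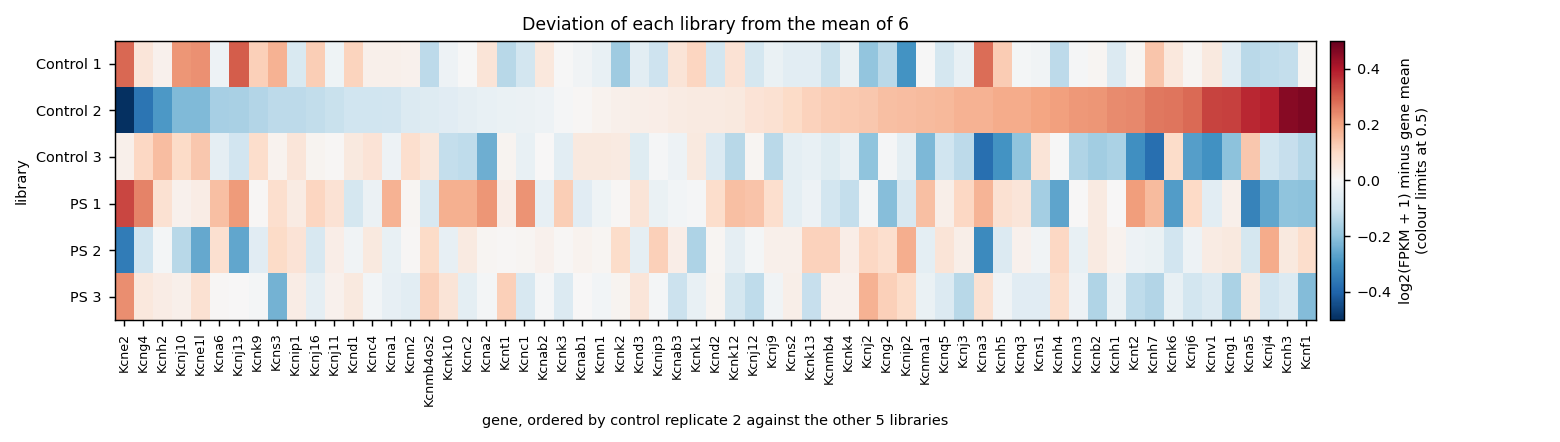
Deviation of each library (rows) from the gene mean over 6 libraries, log2(FPKM + 1), for 63 of the 67 tested members (columns), ordered by control replicate 2 against the other 5. Red is above the gene mean and blue below. Control replicate 2 runs from low Kcne2 and Kcng4 to high Kcnh3 and Kcnf1.

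Some members had nearly the order of the markers of a known site across the 6 libraries. They were picked after their values were seen and are given as description. Others did not, among them Kcnj10, which was highest in control replicate 1 and lowest in control replicate 2, whereas summed astrocyte markers were highest in PS replicate 3, at 400 FPKM, and lowest in control replicate 3, at 362. Kcne2 was at 4.32, 2.02 and 3.43 FPKM in control replicates 1 to 3 and 4.50, 2.42 and 4.12 in PS replicates 1 to 3, and summed choroid plexus markers stood in the same replicates at 1082, 621 and 973 FPKM (control) and 1269, 767 and 1042 (PS). The order of the 6 libraries was the same for both. Kcnj13, at 3.17, 2.02 and 2.16 FPKM in control replicates 1 to 3 and 2.92, 1.83 and 2.38 in PS replicates 1 to 3, was likewise highest in replicate 1 and lowest in replicate 2 of each group.

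Summed striatal markers were lowest in control replicate 1, at 135, and in PS replicate 1, at 142, against 182 to 190 in the other 4. Kcnip2, known from striatum, and Kcnh4 and Kcng2, named here after their values were seen, were also lowest in those libraries. Kcnh4 was at 1.35, 1.97 and 1.57 FPKM in control replicates 1 to 3 and 1.15, 1.77 and 1.73 in PS replicates 1 to 3. Kcng2 was at 2.09, 2.76 and 2.38 FPKM in control replicates 1 to 3 and 1.92, 2.59 and 2.68 in PS replicates 1 to 3. These relations were not tested.

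Genes of proteins that work with these channels were taken from a list of 34, of which 31 were tested. None was called, and 2 were higher and 0 lower at an unadjusted p under 0.05 (6.45% against 5.94% of all tested genes). Their log2 fold changes ran from -0.08 to 0.15, with a median of 0.03. Cntnap1, which separates sodium from potassium channels beside nodes of Ranvier, was at 29.2, 30.2 and 29.8 FPKM in control replicates 1 to 3 and 33.96, 32.04 and 31.7 in PS replicates 1 to 3 (log2 fold change 0.13, SE 0.055, limma adjusted p = 0.837). All its PS values lay above all control values, as in 3 of the 31 partners (9.68%) and 4.93% of all tested genes.

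Dpp6, an auxiliary subunit of Kv4 channels, and Adam22, a partner of Kv1 complexes, were the next by p, at 0.12 and 0.10 (adjusted p = 0.903 and 0.945). Abcc8 and Abcc9, the sulfonylurea receptors that pair with Kcnj11 and Kcnj8, are named here after their values were seen, and were at 4.71 ± 0.427 and 1.15 ± 0.182 FPKM in control and 5.06 ± 0.248 and 1.06 ± 0.101 in PS (SD, n = 3 in each group).

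The members of lowest level complete the set. Kcnk16 was listed at 0 in every library. Kcna7, Kcne1, Kcnj1, Kcnj15, Kcnk18, Kcnmb3 and Kcnv2 were at or below 0.033 FPKM in every library, and Kcna10, Kcne3 and Kcnk7 at or below 0.0967. For Kcnj15 all PS values were above 0 and all control values at 0, at 1 to 4 recovered reads each, so few that no fold is given. Kcnk5, Kcnk15, Kcnj5, Kcnj14, Kcnh6, Kcnh8, Kcne4, Kcnu1, Kcnq1, Kcnmb1, Kcnmb2, Kcnn4 and the regulator gene Kcnrg had means between 0.0914 and 0.773 FPKM, and those of them tested on reads were not called.

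The RNA genes lie on the strand opposite to Kcnmb4 or overlap Kcnq1. Only Kcnmb4os2 passed the filter, at 0.947, 1.04 and 1.22 FPKM in control replicates 1 to 3 and 1.02, 1.27 and 1.31 in PS replicates 1 to 3 (log2 fold change 0.09, limma adjusted p = 0.975). Kcnmb4os1 had a mean of 0.456 FPKM and Kcnq1ot1 of 0.0198. How the counting treated strand is not given, so reads of these genes and of their channel partners cannot be told apart with certainty.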

How the data were processed

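The deposited data are FPKM values made by the authors, 1 table for each of 6 libraries. The submitters' processing notes list fastp, HISAT2, HTSeq, R 3.2.0 and GRCm39 without order, settings or strand. The rule for members uses names only, but it and the gene lists were chosen with earlier results of these data known. Apart from membership, the members to be named in the text were the 3 highest of each family, the 10 of lowest unadjusted p in each direction and 13 set by name. Other members are named to account for the set. Some genes and sequences enter the counts and fits but are not reported here. Genes with a mean of at least 1 FPKM (12229) were tested as log2(FPKM + 1), unscaled, with limma 3.58.1 in R 4.3.3 (group only, variance trend, two-sided). P-values were adjusted by Benjamini-Hochberg over all tested genes. With 3 libraries a side, exact permutation could reach no p under 0.1 and was not run.

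Whole reads were recovered from the FPKM steps, within 0.02 reads for all 26556 genes above 0. For genes of few reads the recovered number may be too low by a common factor. Within groups, libraries differed by more than counting noise (chi-square per degree of freedom 8.55 to 31.57). The read fit, added after seeing the data, used limma-voom on genes with 10 reads at median depth in at least 3 libraries. The limma fit and the recovery were tested on simulated data. Noise was independent there, with no library standing apart. The simulated recovery was given the library totals and used gene lengths below those of Kcnd2 and Kcnip4, so it does not cover these steps.

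Deviations from group means correlated at 0.181, 0.185 and 0.161 between same-numbered libraries, each above 0.1, so the replicate number was also fitted as a block. Between libraries of different number they ran from -0.217 to 0.025. Deviations within a group sum to 0, so these values depend on one another and cannot by themselves show pairing. The labels do not state any pairing. The alternatives were other pseudocounts and filters, median-ratio rescaling, weighted samples, the block, leaving out single libraries, and reads.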

Additional observations from a re-analysis of the deposited data

How the results depend on the processing

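No member was called under any alternative except sample weights, with 2 higher. At an unadjusted p under 0.05 the weights gave 7 members higher and 6 lower (19.4% of members, against 25.7% of all tested genes). Lower members numbered 4 with the replicate block, 2 with no filter, 2 on recovered reads and 0 at a mean FPKM of at least 5. With 1 library left out, higher members ranged from 0 to 2, lower members from 0 to 3, and both together from 0% to 7.46% of members, against 3.88% to 14% of all tested genes. The share of members was above that of all genes only without control replicate 1 (5.97% against 4.32%). The members' median log2 fold change ranged from -0.022 to 0.053. Calls over all genes numbered 20 in the reported fit, 1 with no filter, 9 at a mean FPKM of at least 5, 632 with sample weights, 48 with the replicate block, 31 on recovered reads and 0 to 66 with 1 library left out (0 without PS replicate 2, 66 without control replicate 3, and 2 each without control replicate 1 and without PS replicate 1). The block changed no call of a member. Among the uncalled members chosen to be named, the sign of the log2 fold change turned with sample weights (Kcnab1 0.006, Kcnc4 -0.018, Kcne2 -0.176, Kcng1 0.006, Kcnh1 0.055, Kcnh3 0.029, Kcnj4 0.057, Kcnk13 0.033, Kcnn1 0.024, Kcnt2 -0.007). It also turned when 1 library was left out, over these ranges: Kcna1 -0.009 to 0.10, Kcnab2 -0.036 to 0.004, Kcnb2 -0.135 to 0.061, Kcnc4 -0.044 to 0.039, Kcnd1 -0.099 to 0.007, Kcne1l -0.230 to 0.008, Kcne2 -0.084 to 0.357, Kcng1 -0.171 to 0.102, Kcng4 -0.017 to 0.218, Kcnh1 -0.087 to 0.112, Kcnh2 -0.053 to 0.170, Kcnh3 -0.244 to 0.044, Kcnj10 -0.189 to 0.031, Kcnj13 -0.142 to 0.115, Kcnj16 -0.073 to 0.050, Kcnj4 -0.234 to 0.053, Kcnk13 -0.078 to 0.038, Kcnk3 -0.012 to 0.084, Kcnma1 -0.055 to 0.135, Kcnmb4 -0.021 to 0.101, Kcnn1 -0.042 to 0.002, Kcnn2 -0.064 to 0.012, Kcnn3 -0.126 to 0.058, Kcnq3 -0.079 to 0.115, Kcnq5 -0.027 to 0.103, Kcnt2 -0.106 to 0.167. The cause was not tested. Pseudocounts of 0.1 and 0.5 and rescaling turned no sign of a tested member except that of Kcnh5 at 0.1. Members near 1 FPKM are limited by depth and by the pseudocount.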
